A study of Zea mays with 9 samples.

Results

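The 5 maize genes described here are assigned to kinase cascades, calcium signalling and lipid signalling by name or orthology group. They were followed across the 3 nutrient conditions of the study, out of 45260 genes in the deposited expression values. They were chosen by identifier. Zm00001d052066 is the MAP kinase kinase 5 gene. The others are the genes that the study's pathway assignment placed in the animal MAPK, phospholipase D and Rap1 signalling maps: Zm00001d053293, Zm00001d029397, Zm00001d033980 and Zm00001d048913. The study's separate list for plant MAPK signalling holds 8 genes, 3 of them among the 5. All 5 belong to the genes that the study had already selected for a nitrate response of over 2-fold past its own test and then clustered over all 3 conditions. Their difference between +NO3- and -N was thus part of their selection, their values with cPTIO helped to set their clusters, and all are given here as a description.

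The material was the apex of the primary root of B73, a maize inbred line. Seedlings that had germinated for 3 days were kept in a solution without nitrogen and then spent 24 h in 1 of 3 solutions. One held 1 mM nitrate and 1 mM cPTIO, a scavenger of nitric oxide (+NO3- + cPTIO), one held 1 mM nitrate alone (+NO3-), and one held no nitrogen (-N), although the protocol text shared by all libraries names ammonium chloride where the titles have -N. The labels list 3 libraries of pooled apices for each condition, of which those of +NO3- and -N were taken from earlier work, so the use of cPTIO and the origin of the libraries cannot be told apart. The methods state that not every +NO3- + cPTIO library was kept after quality filtering. The expression values are RPKM (reads per kilobase of transcript, scaled between libraries by quartile normalization), 1 for each gene and condition with the libraries pooled. No value of a single library was at hand, so the differences below are given without a replicate check, a standard error or a p-value. The number of reads behind a value is unknown. The study itself tested each pair of conditions on its libraries, and those test results are not repeated here.

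In plants, MAP kinase kinases are the middle step of a cascade of 3 kinds of protein kinase that passes signals from receptors to transcription factors and enzymes, and those of the group that includes MKK4 and MKK5 are known in Arabidopsis for their part in immunity, stomatal patterning and ethylene responses. Calcium is read by small proteins with EF-hands, among them calmodulins, which bind and switch many enzymes, and calcineurin B-like proteins, which hand the signal to a dedicated family of kinases. Phospholipase D cuts membrane phospholipids and releases phosphatidic acid, which is itself a signal in roots and under stress. Nitric oxide is a gaseous signal that roots can form from nitrate through nitrate reductase. Several pathway names used for these genes are those of animal maps: Rap1 is a small GTPase of animal cells, and the genes stand in that map through the orthology group of calmodulin. Likewise, Zm00001d053293 entered the MAPK map through the orthology group of the calcineurin regulatory subunit B.

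The 5 genes were expressed at low to middling levels. Their RPKM ranged from 1.41 to 8.08 in +NO3- + cPTIO, from 1.02 to 6.86 in +NO3- and from 0.333 to 5.28 in -N, while the median over all genes listed above 0 was 5.65, 5.12 and 5.11 in the same conditions. The sum over the 5 genes was 22.8 RPKM in +NO3- + cPTIO, 14.7 in +NO3- and 14.5 in -N. Near-equal sums in +NO3- and -N hide opposite differences, since 2 of the genes were lower and 3 were higher with nitrate.

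**Figure D1:**
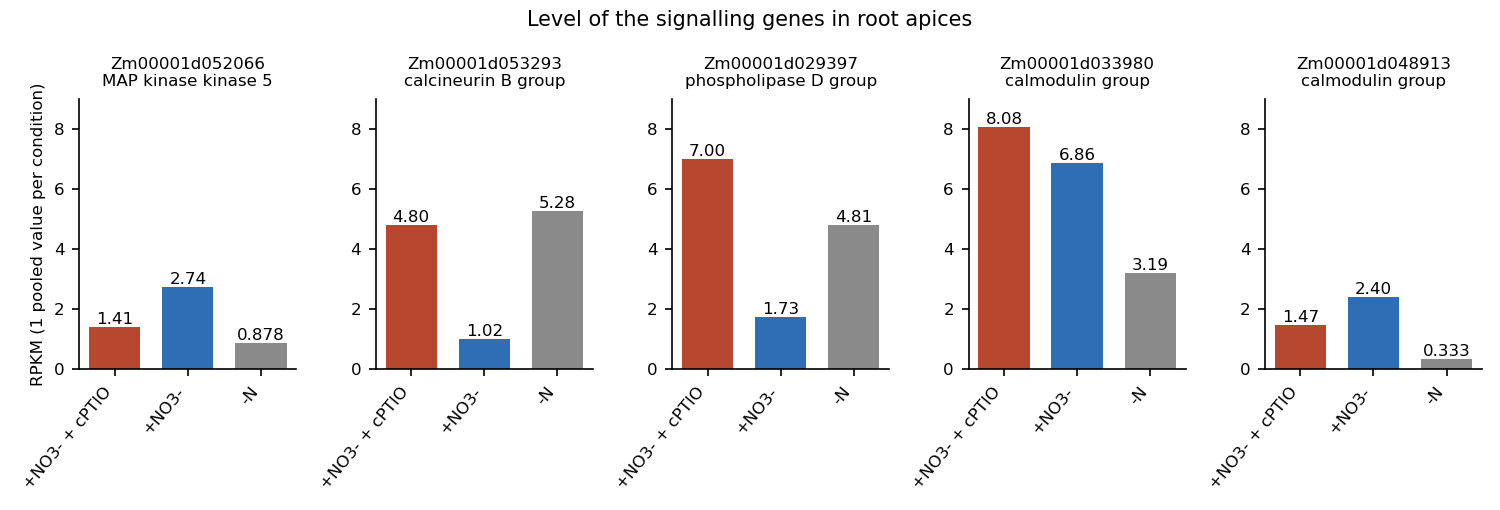
RPKM of each of the 5 signalling genes in +NO3- + cPTIO, +NO3- and -N (bars from 0, 1 pooled value per condition, no error bars). Zm00001d053293 and Zm00001d029397 are lowest in +NO3-, at 1.02 and 1.73 RPKM, and the other 3 genes are lowest in -N.

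Differences were counted as past 2-fold, the fold limit of the study, for genes that reached 1 RPKM in either condition of a comparison, and all 5 genes met this minimum in each comparison. Between +NO3- + cPTIO and +NO3-, 2 of the 5 genes were over 2-fold higher with the scavenger, where 7.08% of the 21617 genes compared were, and 0 were over 2-fold lower, where 12.7% were. Between +NO3- + cPTIO and -N, 2 of the 5 were over 2-fold higher, against 8.33% of 21312 genes, and 0 were lower, against 9.21%. Between +NO3- and -N, 3 of the 5 were over 2-fold higher, against 5.24% of 21290 genes, and 2 were lower, against 2.54%, which follows from their selection. With 1 RPKM added to every value, the genes over 2-fold higher were 1 of the 5 in +NO3- + cPTIO against -N, where 5.74% of all genes were, and 1 of the 5 in +NO3- against -N, where 2.51% were. The other 4 counts of the 5 genes were the same with it. The comparisons share conditions and are not independent of each other. Both genes over 2-fold higher in +NO3- + cPTIO than in +NO3- were of the study's cluster 1, where the median log2 ratio was 1.94. The other 3 were of its cluster 5, where it was -0.49. The clusters were formed on these same values, so the counts with cPTIO are no independent result either. The counts are small, and each gene is therefore described on its own.

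**Figure D2:**
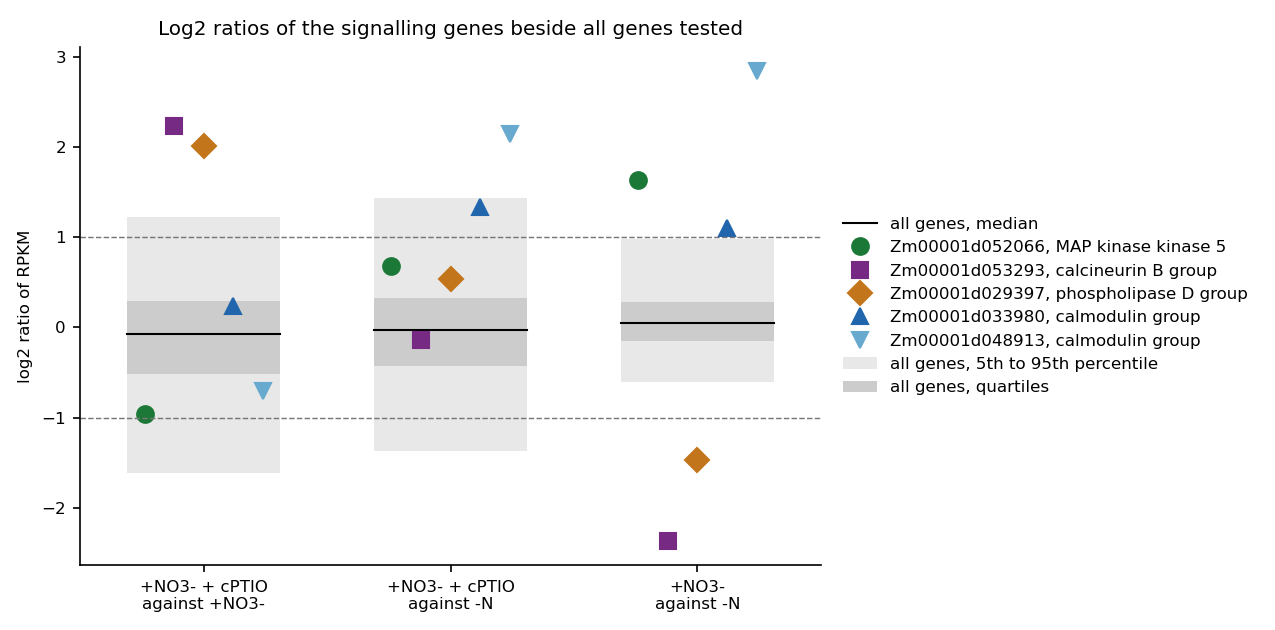
Log2 ratio of RPKM of the 5 genes (symbols) in the 3 comparisons, beside all genes with a ratio (light bars from the 5th to the 95th percentile, dark bars the quartiles, black line the median). The dashed lines mark 2-fold. Zm00001d053293 and Zm00001d029397 lie above 2 in +NO3- + cPTIO against +NO3-, and the other 3 genes lie within 2-fold there.

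The MAP kinase kinase 5 gene, Zm00001d052066, lies on chromosome 4 of AGPv4 from 178300451 to 178301545, a span of 1095 bp. It had an RPKM of 1.41 in +NO3- + cPTIO, 2.74 in +NO3- and 0.878 in -N. The gene was thus highest with nitrate alone, with the scavenger condition in between. The ratio of +NO3- to -N was 3.12-fold, a log2 ratio of 1.64, and 1.68% of the genes with a ratio exceeded it. With 1 RPKM added to each value the log2 ratio was 0.99, just inside the 2-fold limit. In +NO3- + cPTIO the gene was 1.94-fold lower than in +NO3-, a log2 ratio of -0.96 that lies just inside the 2-fold limit and that 12.9% of genes passed on the lower side. Against -N it was 1.61-fold higher, a log2 ratio of 0.68.

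To express where the scavenger condition lay, the remaining share of the nitrate response was taken as the log2 ratio of +NO3- + cPTIO to -N divided by that of +NO3- to -N, so that 0 stands for the level in -N and 1 for that in +NO3-. For MAP kinase kinase 5 it was 0.42, and 0.29 when the same share was taken on RPKM without the logarithm, so on both scales the value with cPTIO lay nearer to -N than to +NO3-. The study's clustering placed the gene in its cluster 5, which the paper describes as raised by nitrate independently of nitric oxide. Over 211 genes of the cluster above 0 in every condition, the median remaining share was 0.72, with quartiles of 0.51 and 0.95. In that cluster 31 genes had a lower share than MAP kinase kinase 5. Its nitrate difference, by contrast, was close to the cluster's median log2 ratio of 1.65. The clusters were formed on these same values, so a place within a cluster is a description.

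Zm00001d053293, the gene of the calcineurin regulatory subunit B group, lies on chromosome 4 from 224621867 to 224623388. Its RPKM was 4.80 in +NO3- + cPTIO, 1.02 in +NO3- and 5.28 in -N. The value with nitrate alone stood apart, and the values of +NO3- + cPTIO and -N differed by 1.10-fold. With nitrate the gene was 5.19-fold lower than in -N, a log2 ratio of -2.38, and 59 of 21147 genes (0.279%) had a lower ratio. In +NO3- + cPTIO it was 4.72-fold higher than in +NO3-, a log2 ratio of 2.24 that 1.63% of genes exceeded. With 1 RPKM added these log2 ratios were -1.64 and 1.52, both still past 2-fold. Against -N the log2 ratio of +NO3- + cPTIO was -0.14, well inside the quartiles of all genes, which lay at -0.43 and 0.33. The remaining share was 0.06. The gene is in the study's cluster 1, which the paper describes as lowered by nitrate in dependence on nitric oxide. Of the 102 genes of that cluster that were above 0 in every condition, 13 had a larger nitrate difference in absolute log2 ratio.

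Zm00001d029397, assigned to the phospholipase D group, lies on chromosome 1 from 68934359 to 68938239. It had an RPKM of 7.00 in +NO3- + cPTIO, 1.73 in +NO3- and 4.81 in -N. This gene was therefore lowest with nitrate alone, as Zm00001d053293 was, but highest with the scavenger. The ratio of +NO3- to -N was a log2 ratio of -1.48, or 2.78-fold lower. In +NO3- + cPTIO the gene was 4.05-fold higher than in +NO3-, a log2 ratio of 2.02, with 2.04% of genes further up. It was also 1.46-fold higher than in -N, a log2 ratio of 0.54 that is within 2-fold and that 16.3% of genes exceeded. The remaining share was -0.37, since the value with cPTIO lay beyond that of -N, and in cluster 1, where the median was -0.05, 33 of the 102 genes had a lower one. On RPKM without the logarithm the share of this gene was -0.71.

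These genes differ from the other 3 in the direction of their nitrate difference and in the size of their difference between +NO3- + cPTIO and +NO3-. Among root cap genes that the study names, which lie in the sampled apex, the root cap-specific protein gene Zm00001d045420 was also lowest with nitrate alone, with 23.0 RPKM in +NO3- + cPTIO, 6.04 in +NO3- and 44.7 in -N. Root-cap periphery 1 (Zm00001d041984) had 41.0, 17.6 and 131 RPKM in the same order of conditions. Root cap periphery gene 2 (Zm00001d052527) had 8.63, 7.36 and 65.2, so its values with and without cPTIO lay close together, far below -N. The 5 root cap genes summed to 78.5 RPKM in +NO3- + cPTIO, 36.0 in +NO3- and 244 in -N. Each of them was at 1.17 RPKM or more in every condition, except BEARSKIN2 (Zm00001d003583), a NAC factor of the root cap, with 0.207 in +NO3-. SOMBRERO (Zm00001d016119), another such factor, went the other way, with 4.65, 4.77 and 1.17 RPKM in +NO3- + cPTIO, +NO3- and -N. The study named these genes for their nitrate response, so they are not independent of it. In pooled tissue, fewer cells of a type and less RNA per cell cannot be told apart, and the part of root cap cells in the levels of the signalling genes was not tested.

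The calmodulin-group genes were both higher with nitrate than without. Zm00001d033980, on chromosome 1 from 279980867 to 279981749, had an RPKM of 8.08 in +NO3- + cPTIO, 6.86 in +NO3- and 3.19 in -N. Its 2 values with nitrate lay together above that of -N. The log2 ratio was 1.10 for +NO3- against -N, or 2.15-fold, and 1.34 for +NO3- + cPTIO against -N, or 2.53-fold, while +NO3- + cPTIO and +NO3- differed by 1.18-fold, a log2 ratio of 0.24. With 1 RPKM added the ratio of +NO3- to -N was 0.91 in log2, inside the 2-fold limit, and that of +NO3- + cPTIO to -N was 1.12. Its remaining share of 1.21 was above that of 207 of the 211 genes in cluster 5. The nitrate difference of this gene was the smallest of the 5, and 193 genes of the cluster had a larger one.

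Zm00001d048913, on chromosome 4 from 7813587 to 7814192, spans only 606 bp. It had an RPKM of 1.47 in +NO3- + cPTIO, 2.40 in +NO3- and 0.333 in -N. This gene was lowest without nitrogen and highest with nitrate alone. Its 7.22-fold ratio of +NO3- to -N, a log2 ratio of 2.85, was the largest nitrate difference among the 5 genes without a pseudocount, and 75 of 21147 genes (0.355%) had a larger log2 ratio. The denominator is small, and with 1 RPKM added to each value the log2 ratio was 1.35, smaller in size than the -1.64 of Zm00001d053293. In +NO3- + cPTIO the gene was 4.42-fold higher than in -N, a log2 ratio of 2.14 (0.89 with 1 RPKM added, inside the 2-fold limit), and 1.63-fold lower than in +NO3-, a log2 ratio of -0.71. The remaining share was 0.75, close to the median of cluster 5. It was 0.66 with 1 RPKM added to each value, and 0.55 on RPKM without the logarithm.

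Since RPKM is scaled by transcript length, the levels of these genes can be set side by side. Zm00001d033980 exceeded Zm00001d048913 by 5.49-fold in +NO3- + cPTIO, 2.85-fold in +NO3- and 9.58-fold in -N. The share of Zm00001d048913 in their sum was 15.4% in +NO3- + cPTIO, 26.0% in +NO3- and 9.45% in -N. Their summed level was 9.55 RPKM in +NO3- + cPTIO, 9.26 in +NO3- and 3.52 in -N. The sum thus differed by 1.03-fold between the nitrate conditions, although 1 gene was higher and the other lower with cPTIO, and the log2 ratio of Zm00001d048913 minus that of Zm00001d033980 was -0.94 in that comparison. Whether reads are common to both genes was not tested.

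**Figure D3:**
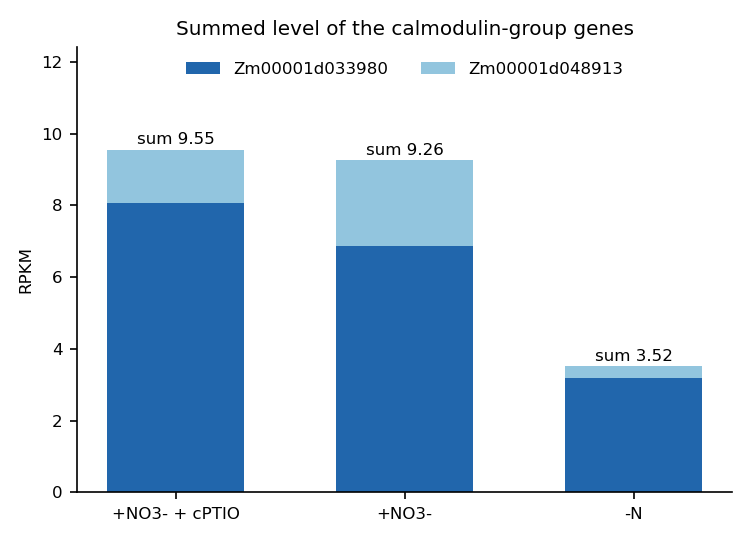
RPKM of the calmodulin-group genes Zm00001d033980 and Zm00001d048913, stacked, in +NO3- + cPTIO, +NO3- and -N (1 pooled value per gene and condition). The sums are 9.55, 9.26 and 3.52 RPKM, and Zm00001d048913 makes up 15.4%, 26.0% and 9.45% of them.

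Other genes of the same pathways were taken from the study's assignments, which hold 27 genes in the 8 pathways that include at least 1 of the 5 genes. All were drawn from its nitrate-responsive genes, so they are not independent evidence of a direction with nitrate. Each comparison with cPTIO uses the +NO3- or -N value that entered this selection. The shares and medians over all genes are therefore no matched background for these lists in any comparison. The plant MAPK signalling list holds 8 genes, 3 of them described above. In +NO3- + cPTIO against +NO3-, 1 of the 8 was over 2-fold higher (7.08% of all genes were), 2 were over 2-fold lower (12.7%) and 5 were within 2-fold, with a median log2 ratio of -0.24, beside -0.07 over all genes. Against -N, 7 of the 8 passed the RPKM minimum, of which 3 were over 2-fold higher (8.33% of all genes) and 1 was lower (9.21%) in +NO3- + cPTIO, with a median of 0.68 beside -0.03 over all genes. In +NO3- against -N, 6 were over 2-fold higher (5.24% of all genes) and 2 were lower (2.54%), with a median of 1.71 beside 0.04 over all genes.

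Within this list the catalase gene Zm00001d027511 had 10.4 RPKM in +NO3- + cPTIO, 0.675 in +NO3- and 11.0 in -N. Catalase breaks down hydrogen peroxide, and the gene's order of conditions was that of Zm00001d053293. Its log2 ratio of +NO3- + cPTIO to +NO3- was 3.95. The respiratory burst oxidase gene Zm00001d007430, which encodes an enzyme that produces superoxide outside the cell, had 1.14, 0.877 and 3.56 RPKM in the same order of conditions. It was the gene of this list that was over 2-fold lower in +NO3- + cPTIO than in -N, with a log2 ratio of -1.63, and its difference from +NO3- was within 2-fold.

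A pair of genes of the basic endochitinase group, enzymes that cut fungal chitin, lie side by side on chromosome 1. Zm00001d027524 had 8.38 RPKM in +NO3- + cPTIO, 46.7 in +NO3- and 7.82 in -N, and was 2.48 lower in log2 with the scavenger than with nitrate alone. Zm00001d027525 had 0.468, 1.19 and 0.254 RPKM, with a log2 ratio of -1.34 in that comparison. Both were highest in +NO3-, as MAP kinase kinase 5 was. As neighbours of the same group they may share reads, and each value alone is uncertain for that reason. Zm00001d028574, of the PP2C protein phosphatases that hold abscisic acid signalling in check, had 1.85 RPKM in +NO3- + cPTIO, 1.37 in +NO3- and 0.400 in -N, with the order of conditions seen for Zm00001d033980.

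The plant-pathogen interaction list holds 9 genes, 3 of them again the MAP kinase kinase and the calmodulin-group genes. In +NO3- + cPTIO against +NO3-, 3 of the 9 were over 2-fold higher (7.08% of all genes), 0 were lower (12.7%) and 6 were within 2-fold, with a median log2 ratio of 0.38 beside -0.07 over all genes. Against -N, 5 were over 2-fold higher (8.33%) and 1 was lower (9.21%), with a median of 1.34 beside -0.03. In +NO3- against -N, 5 were over 2-fold higher (5.24%) and 4 were lower (2.54%), with a median of 1.10 beside 0.04. Another 2 calcium-reading proteins stand in this list. Zm00001d026139, of the calcium-dependent protein kinases, which join a kinase and EF-hands in 1 protein, had 12.5 RPKM in +NO3- + cPTIO, 4.97 in +NO3- and 2.28 in -N. It was over 2-fold higher with the scavenger than with nitrate alone, with a log2 ratio of 1.32, which neither calmodulin-group gene was. Zm00001d014271, of the calmodulin-like proteins, had 4.19, 4.41 and 1.29 RPKM, and its values in the nitrate conditions differed by 0.07 in log2.

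Of the other genes of this list, Zm00001d043491 had 6.69 RPKM in +NO3- + cPTIO, 0.641 in +NO3- and 2.08 in -N, the order of conditions of the phospholipase D gene, with a log2 ratio of 3.38 between +NO3- + cPTIO and +NO3-. Zm00001d048953, of the 3-ketoacyl-CoA synthases that elongate fatty acids, had 1.42, 0.514 and 2.64 RPKM, and Zm00001d023923, of a group of disease resistance proteins, had 4.19, 3.08 and 7.08. Both were lowest with nitrate alone and highest in -N, as Zm00001d053293 was.

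**Figure D4:**
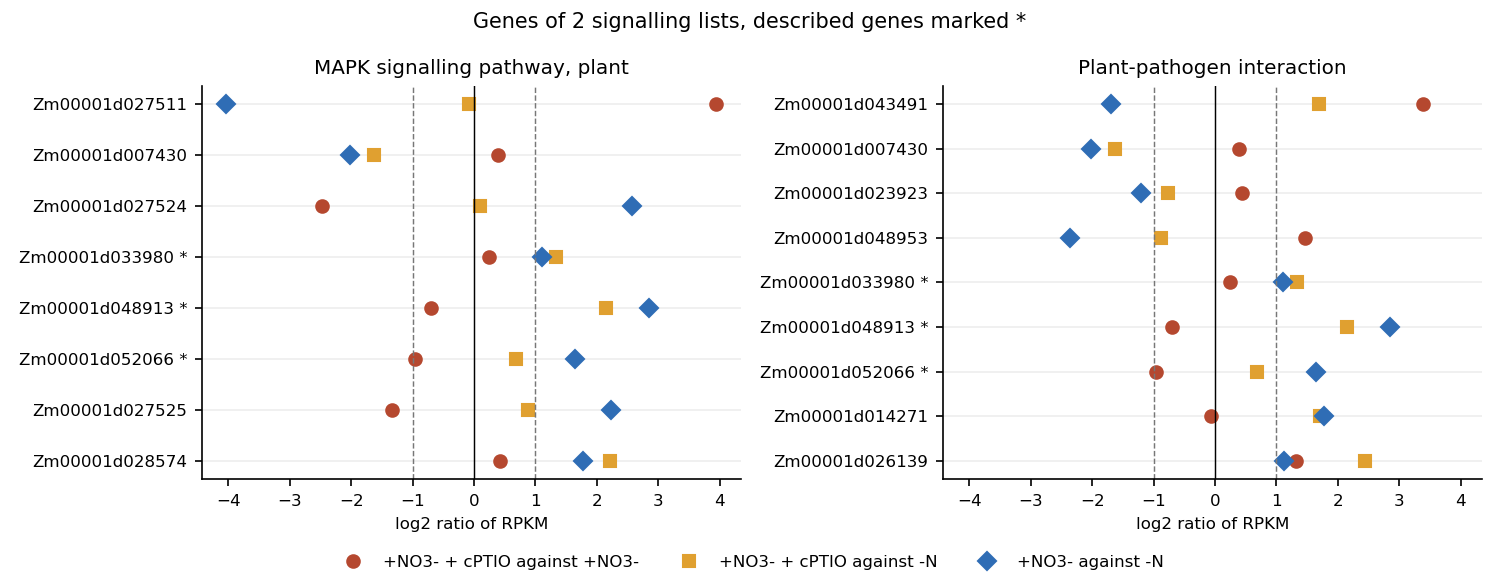
Log2 ratios of RPKM of the genes in the plant MAPK signalling list (8 genes) and the plant-pathogen interaction list (9 genes) in the 3 comparisons; genes with a star are among the 5 described, and dashed lines mark 2-fold. With the scavenger against nitrate alone, the lists reach from -2.48 for Zm00001d027524 to 3.95 for Zm00001d027511, and the 3 starred genes lie between -0.96 and 0.24.

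The remaining lists that hold the 5 genes are short. The calcium signalling list consists of Zm00001d053293 and the calmodulin-group genes alone, and the phospholipase D, Rap1 and animal MAPK lists hold none but genes described above. The phosphatidylinositol signalling list adds Zm00001d043286, an inositol phosphate kinase gene with 5.45 RPKM in +NO3- + cPTIO, 16.2 in +NO3- and 7.95 in -N. It was highest in +NO3- and lowest with cPTIO, an order of conditions that none of the 5 genes had. The plant hormone list includes MAP kinase kinase 5 among 13 genes, of which 12 passed the RPKM minimum in +NO3- + cPTIO against +NO3-. Of these, 4 were over 2-fold higher (7.08% of all genes), 3 were lower (12.7%) and 5 were within 2-fold, with a median log2 ratio of -0.40 beside -0.07 over all genes. In +NO3- + cPTIO against -N, 5 of 12 were over 2-fold higher (8.33%) and 3 were lower (9.21%), with a median of 0.59 beside -0.03. In +NO3- against -N, 10 of 13 were higher (5.24%) and 3 were lower (2.54%), with a median of 1.23 beside 0.04.

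The genes whose pattern over the 3 conditions was most like that of each gene were found by the Euclidean distance between log2 RPKM, centred on each gene's mean, over genes that reached 1 RPKM in every condition. The 3 conditions give each pattern only 2 free values, so close matches are easily found. For MAP kinase kinase 5 the nearest were ENSRNA049476322, Zm00001d042035 and ENSRNA049476878, at distances of 0.03, 0.07 and 0.09, and 32 of 19101 genes lay within 0.25. ENSRNA049476322 (8518187 to 8518274 on chromosome 7) and ENSRNA049476878 (176206058 to 176206147 on chromosome 3) are very short, so their RPKM is uncertain. For Zm00001d033980 they were Zm00001d035662, Zm00001d010576 and Zm00001d020558, at 0.04, 0.05 and 0.05, with 68 genes within 0.25. The pattern of Zm00001d029397 was nearest to Zm00001d008808, Zm00001d009140 and Zm00001d034782, at 0.12, 0.13 and 0.16, with 10 genes within 0.25.

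Fewer genes came close to the others. However, Zm00001d048913, at 0.333 RPKM in -N, was itself below the minimum of 1 RPKM. Zm00001d053293, at 1.02 in +NO3-, was just above it, and MAP kinase kinase 5, at 0.878 in -N, was below it. Genes of like level and pattern could thus be left out, so the numbers of close genes depend on this minimum. For Zm00001d053293 only Zm00001d031822, at 0.18, was within 0.25, and Zm00001d031926 and Zm00001d018603 followed at 0.26. Zm00001d031822 had 7.09 RPKM in +NO3- + cPTIO, 1.49 in +NO3- and 6.68 in -N. For Zm00001d048913, Zm00001d038741 and Zm00001d046474 lay at 0.17 and 0.25, and ENSRNA049476890 at 0.29. Zm00001d038741 had 8.80 RPKM in +NO3- + cPTIO, 13.3 in +NO3- and 2.19 in -N.

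Of the 5 genes, 3 lie on chromosome 4 and 2 on chromosome 1, and no other gene overlapped any of them in the deposited positions. The closest neighbour of all was Zm00001d033981, which starts 645 bp beyond the end of the calmodulin-group gene Zm00001d033980. It had 28.5 RPKM in +NO3- + cPTIO and 11.5 in -N. This neighbour differed by 0.17 in log2 between +NO3- and -N, against 1.10 for Zm00001d033980, and by 1.13 between +NO3- + cPTIO and +NO3-, against 0.24 for Zm00001d033980. The gene on the other side, Zm00001d033979, was lower in +NO3- + cPTIO, with 57.3 RPKM against 90.2 in +NO3-.

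The nearest genes on both sides of Zm00001d048913 are listed at 0 in each condition. Beside MAP kinase kinase 5, Zm00001d052067 lies 3.39 kb away with 0.657 RPKM in +NO3- + cPTIO, 1.75 in +NO3- and 1.86 in -N, so it did not share the nitrate difference of that gene. The neighbours of Zm00001d053293 and Zm00001d029397 all lay under 1 RPKM in each condition.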

How the data were processed

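The deposited values are RPKM, 1 per gene and condition. Per the labels and the study's methods, the authors trimmed reads with Trimmomatic 0.33, mapped them to B73 RefGen_v4 (AGPv4) with TopHat2 2.0.13 and pooled the libraries of a condition with Cuffdiff (Cufflinks 2.2.1), using quartile normalization and a correction for reads with several places. The strand setting of the counting is not given in the sources used here, and a stranded kit is named in the labels only. Whether reads of antisense genes were kept apart is therefore not known. Depth per library is not in these values.

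From the RPKM, log2 ratios were taken without a pseudocount, and a gene listed at 0 in 1 condition counted as past 2-fold. No test was made. Starts were counted from 0 in the file (43.1% of spans were then multiples of 3, against 27.8% otherwise) and are given from 1. Pathway lists and cluster numbers are the study's. Names of orthology groups are those of KEGG. The genes named are the 5 chosen ones, those of the lists, the 3 nearest patterns and the neighbours on the chromosome. A reference gene table of another assembly matched 153 of 45260 identifiers and 0 of the 5, so gene families, proteins and promoters were not analysed here. The genes and lists were chosen with earlier results of these data known. The steps were tested on simulated data with Python 3.11.15, numpy 2.4.6, pandas 2.3.3 and matplotlib 3.10.9. Alternatives were an RPKM minimum of 0.1, 5 or none, a limit of 1.5-fold, a pseudocount of 1 or 0.1, and a rescaling of the conditions by the median ratio or by the upper quartile.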

Additional observations from a re-analysis of the deposited data

How the results depend on the processing

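No paired analysis was possible because the deposited values hold 1 pooled column per condition, and for the same reason no replicate could be left out. With a pseudocount of 0.1, or after a rescaling of the conditions by the median ratio or by the upper quartile, each log2 ratio, count and remaining share moved by less than 1.5-fold, or by less than 0.25 for the shares, and no log2 ratio of the 5 genes changed sign under any setting tried. A pseudocount of 1 lowered the larger ratios of the low genes. For Zm00001d053293 the log2 ratio was then 1.52 for +NO3- + cPTIO against +NO3- and -1.64 for +NO3- against -N. For Zm00001d048913 it was 0.89 for +NO3- + cPTIO against -N and 1.35 for +NO3- against -N, and for Zm00001d052066 it was 0.99 for +NO3- against -N. With this pseudocount, 1 of the 5 genes was over 2-fold higher in +NO3- + cPTIO than in -N, where 5.74% of all genes were, and 1 in +NO3- than in -N, where 2.51% were. At a limit of 1.5-fold, 2 of the 5 were lower in +NO3- + cPTIO than in +NO3-, where 23% of the 21617 genes compared were.

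The counts over all genes depended on the RPKM minimum and the limit. For +NO3- + cPTIO against +NO3-, the genes higher and lower numbered 2704 and 4786 with a minimum of 0.1, 923 and 1503 with 5, 3909 and 6712 with none, and 2972 and 4979 at 1.5-fold. For +NO3- + cPTIO against -N, they numbered 3352 and 3520, 1006 and 1090, 4731 and 5233, and 3298 and 4040 under the same settings. For +NO3- against -N, they numbered 2902 and 1401, 445 and 254, 4773 and 2763, and 2501 and 1155. A pseudocount of 1 gave 1760 lower genes for +NO3- + cPTIO against +NO3-, 1259 lower for +NO3- + cPTIO against -N, and 534 higher and 310 lower for +NO3- against -N. By their definition, a lower RPKM minimum or fold limit can only add genes to these counts, and a pseudocount can only shrink a ratio.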
